A study of Mus musculus with 12 samples.

Results

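Dense runs of neighbouring accessible sites were taken from the ATAC-seq master peak-list of mouse blood cells. The members were chosen by their measured positions: all 84243 peaks were sorted along each chromosome, neighbours with centres at most 3000 bp apart were chained, and every peak of a chain with 5 or more peaks was kept. This rule kept 1507 peaks (1.79% of the list), which formed 270 of the 65746 chains (0.411%). They are called dense chains here. ATAC-seq, in which a transposase cuts open DNA and leaves sequencing adapters, had been run on 12 samples, 2 replicates of each of 6 cell types sorted from wild-type C57BL/6 mice aged 8 to 12 weeks. Hematopoietic stem cells (HSCs), megakaryocyte progenitors (MkPs), erythroid progenitors (EPs), granulocyte/macrophages (GMs) and B cells came from bone marrow, and T cells came from thymus, as the sample labels state. No animal carried an engineered allele or received a treatment according to those labels, which do not say whether replicates were separate animals. The list pools the 6 cell types: it gives each peak a position on mm10, a class and the nearest transcription start site (TSS), but no reads and no cell type, so no value below has a replicate error and no cell types were compared.

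Enhancers are stretches of open DNA that bind transcription factors and raise transcription of a promoter that may lie far away. Where many of them crowd together and carry unusually high levels of activating factors or acetylated histones, the cluster is called a super-enhancer or stretch enhancer, and such clusters are known from genes that define a cell type. That name rests on signal in 1 cell type, and the list holds none: its peak score was 0 in every peak. Whether any dense chain is a super-enhancer could therefore not be checked, and neighbours in a chain may have been open in different cell types.

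Sequences are shown for 7 peaks so that the DNA behind the chains can be read. They come from 5 chains with 9 or more peaks, and from the chains at Lyl1 and Irf4, 2 transcription factor genes of blood cells that were chosen after their values were seen. From each chain came the peak whose central 300 bases held matches to the most of 12 motif families, leaving out windows that reach an exon of a protein-coding transcript. Each line gives the nearest genes of the chain, the window on the plus strand of mm10 and its sequence from the RefSeq copy of that assembly, with the matches in capitals.
Gpr132 chr12:112876329-112876628: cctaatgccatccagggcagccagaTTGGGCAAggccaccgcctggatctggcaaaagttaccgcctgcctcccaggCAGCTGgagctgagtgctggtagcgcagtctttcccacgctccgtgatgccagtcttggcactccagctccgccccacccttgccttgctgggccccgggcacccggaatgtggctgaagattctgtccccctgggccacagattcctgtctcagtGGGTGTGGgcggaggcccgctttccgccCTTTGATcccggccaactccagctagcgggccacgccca
A930007I19Rik chr19:29499121-29499420: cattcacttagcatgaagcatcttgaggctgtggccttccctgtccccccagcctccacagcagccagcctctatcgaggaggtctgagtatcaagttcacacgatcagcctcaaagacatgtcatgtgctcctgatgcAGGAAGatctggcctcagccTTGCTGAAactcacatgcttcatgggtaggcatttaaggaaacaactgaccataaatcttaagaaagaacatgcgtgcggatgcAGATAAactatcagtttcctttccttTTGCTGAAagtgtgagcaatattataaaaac
Nt5c3 chr6:56910964-56911263: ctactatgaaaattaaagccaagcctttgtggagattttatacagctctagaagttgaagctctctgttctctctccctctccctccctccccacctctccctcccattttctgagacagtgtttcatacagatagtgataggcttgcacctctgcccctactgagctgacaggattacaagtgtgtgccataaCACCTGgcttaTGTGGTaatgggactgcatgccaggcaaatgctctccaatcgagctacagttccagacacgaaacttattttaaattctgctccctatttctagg
Gm2848 and Syk chr13:52580882-52581181: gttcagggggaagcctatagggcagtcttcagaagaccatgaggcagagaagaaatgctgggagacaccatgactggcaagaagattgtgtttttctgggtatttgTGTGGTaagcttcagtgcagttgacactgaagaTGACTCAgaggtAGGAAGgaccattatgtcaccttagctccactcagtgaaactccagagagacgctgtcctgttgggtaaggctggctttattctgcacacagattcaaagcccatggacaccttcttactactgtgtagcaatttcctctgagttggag
Neat1 chr19:5842298-5842597: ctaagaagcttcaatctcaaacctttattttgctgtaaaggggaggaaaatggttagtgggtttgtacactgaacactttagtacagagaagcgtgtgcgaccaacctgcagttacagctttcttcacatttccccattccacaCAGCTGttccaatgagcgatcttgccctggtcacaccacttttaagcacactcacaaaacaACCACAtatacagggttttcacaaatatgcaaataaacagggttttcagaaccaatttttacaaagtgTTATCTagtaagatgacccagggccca
Lyl1 chr8:84699976-84700275: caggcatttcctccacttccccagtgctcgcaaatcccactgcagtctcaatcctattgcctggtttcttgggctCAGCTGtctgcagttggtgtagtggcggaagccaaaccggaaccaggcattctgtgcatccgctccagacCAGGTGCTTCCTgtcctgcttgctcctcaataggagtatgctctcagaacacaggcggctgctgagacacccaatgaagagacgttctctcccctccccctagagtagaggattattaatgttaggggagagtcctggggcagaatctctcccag
Irf4 chr13:30748420-30748719: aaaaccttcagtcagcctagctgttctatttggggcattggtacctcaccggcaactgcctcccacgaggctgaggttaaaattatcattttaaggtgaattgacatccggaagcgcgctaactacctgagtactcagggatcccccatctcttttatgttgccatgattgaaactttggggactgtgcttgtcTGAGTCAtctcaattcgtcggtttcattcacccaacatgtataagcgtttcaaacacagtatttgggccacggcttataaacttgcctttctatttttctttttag

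Matches were exact strings on either strand: AGATAA for GATA factors, AGGAAG for the ETS family, GAGGAAGT for PU.1, TGTGGT for RUNX, TTGCNNAA for CEBP, CAGCTG for the E2A/HEB E-box, CAGGTG for the ZEB E-box, TGANTCA for AP-1, CTTTGAT for TCF/LEF, CCACACCC for the KLF CACC box, GAAANNGAA for IRF, and the CTCF consensus. Every PU.1 match is also an ETS match, since the shorter string lies within the longer one. The Gpr132 window lay -15563 bp from the TSS, where a negative distance means upstream, and held 1 match each for CEBP, E2A/HEB, TCF/LEF and KLF. The A930007I19Rik window held 2 CEBP matches, 1 GATA match and 1 ETS match in intergenic DNA. The Irf4 window held 1 match, to AP-1, at -663 bp from the Irf4 TSS. A match describes the letters of a window and does not show that a factor was bound.

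Most dense chains were just long enough to be kept. By number of peaks there were 170 chains of 5, 64 of 6, 24 of 7, 6 of 8, 5 of 9 and 1 of 12. Just outside the limit lay 676 chains of 4 peaks. Their median span was 5072 bp, against 6878 bp for chains of 5 peaks, and 44.8% of them held a promoter peak (centre and TSS at most 500 bp apart), against 48.2% for chains of 5. From the first base of the first peak to the last base of the last peak, dense chains spanned 3434 to 21853 bp, with a median of 7506 bp and quartiles of 6307 and 8922 bp. Every peak was 499 bp wide, so that peaks covered 35.8% of the 2100 kb spanned by the chains. The 1237 distances between neighbouring centres ran from 501 to 3000 bp with a median of 1496 bp, and 71 of them (5.74%) were at most 600 bp, where 2 peaks could be pieces of 1 open region. The chain with the most peaks also had the longest span, as the plot of chain lengths and spans shows. All of these values follow from the rule that chose the members and are given as a description.

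**Figure D1:**
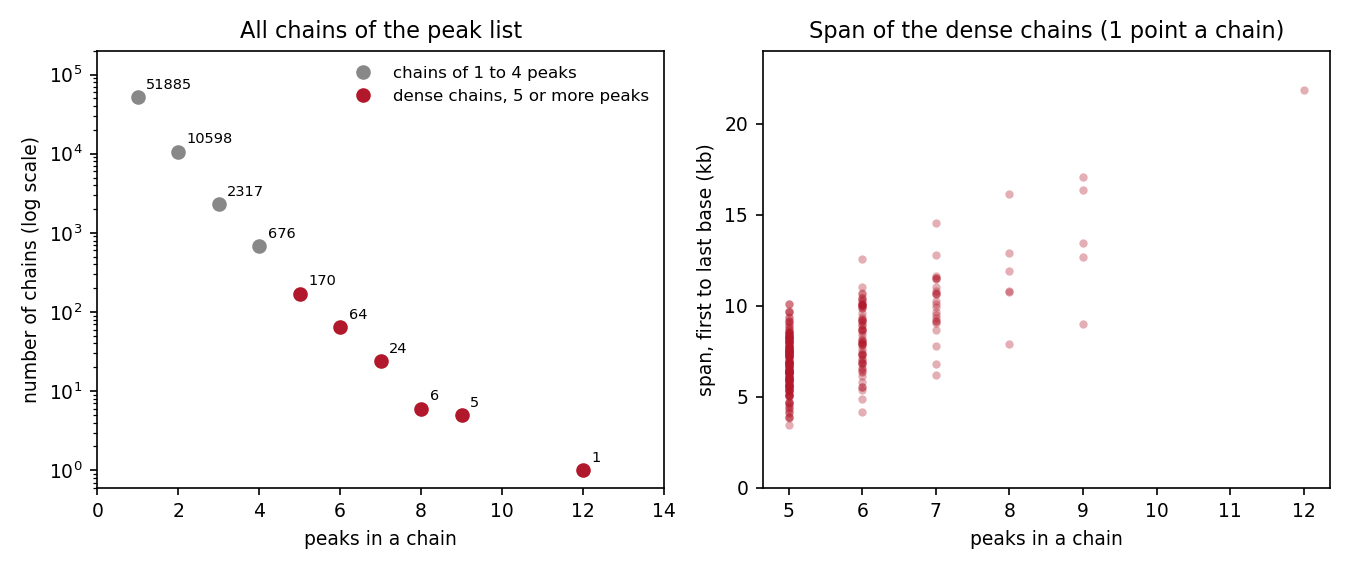
Left, the number of chains (log scale) against the number of peaks in a chain for the whole list, with dense chains of 5 or more peaks in red. Right, the span in kb of each of the 270 dense chains against its number of peaks, 1 point a chain. Counts drop from 51885 single peaks to 1 chain of 12 peaks, the Gpr132 chain of 21853 bp.

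The longest chain lay at Gpr132, which encodes a G protein-coupled receptor of lymphocytes and macrophages. Its 12 peaks covered chr12:112854876-112876728, a span of 21853 bp, and all 12 had Gpr132 as the nearest promoter. One peak sat on the promoter at -85 bp, 3 lay in introns up to 5791 bp downstream of the TSS, and 8 were intergenic, reaching -15563 bp. ETS strings were found in 8 of the 12 peaks, RUNX strings in 7 and GATA strings in 1. Over all peaks of the list the shares were 62.4% for ETS, 38.9% for RUNX and 24.1% for GATA. Counts in other chains below stand beside these shares and were not tested. The next peak outside the chain was 4572 bp away.

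Chains with 9 peaks occupied quite different settings. At A930007I19Rik, a non-coding transcript, all 9 peaks were intergenic on chr19:29484490-29501571, 20665 to 37248 bp from the TSS, and GATA strings were found in 5 of them. At Nt5c3, a nucleotidase gene that red cells use to break down pyrimidine nucleotides, the chain lay wholly inside the gene, with 1 promoter peak at -77 bp and 7 peaks in intron 1. The Gm2848 and Syk chain reached from the promoter of the non-coding Gm2848 to that of Syk, the tyrosine kinase that relays signals from the B cell receptor. ETS and RUNX strings were each found in 6 of its 9 peaks. The Neat1 chain was the most compact of those with 9 peaks, with 9 peaks in 8994 bp. It lay across the TSS of Neat1, a gene for nuclear RNA of paraspeckles, and no peak was over 4838 bp from that TSS.

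There were 6 chains of 8 peaks. The Foxn3 chain, at a forkhead transcription factor gene, lay in 1 intron (intron 3), and its peaks were 117634 to 130012 bp from the Foxn3 TSS that the list names. The Mta3 chain lay inside Mta3, a subunit gene of a chromatin remodelling complex, over introns 7 to 9, and 2 of its 8 peaks had Haao, an enzyme gene of tryptophan breakdown, as nearest promoter. The Lyl1 chain covered chr8:84697666-84709594 around a basic helix-loop-helix factor gene of blood stem cells, with 1 peak at 136 bp from the TSS and the others reaching into the neighbouring genes Trmt1 and Nfix. The Vsir chain, at an immune checkpoint receptor gene that itself lies within Cdh23, had 1 promoter peak and ETS strings in 6 of 8 peaks. The Cfap45 chain started at the promoter at -121 bp and ran into intron 3 of this gene for a protein of cilia and flagella. The Tmc8 and Tmc6 chain, at a pair of head-to-head membrane protein genes, held 3 promoter peaks within 7914 bp. The map of these chains shows that promoter peaks took no fixed place: they stood at an end of the Nt5c3 and Cfap45 chains and inside those of Gpr132 and Neat1.

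**Figure D2:**
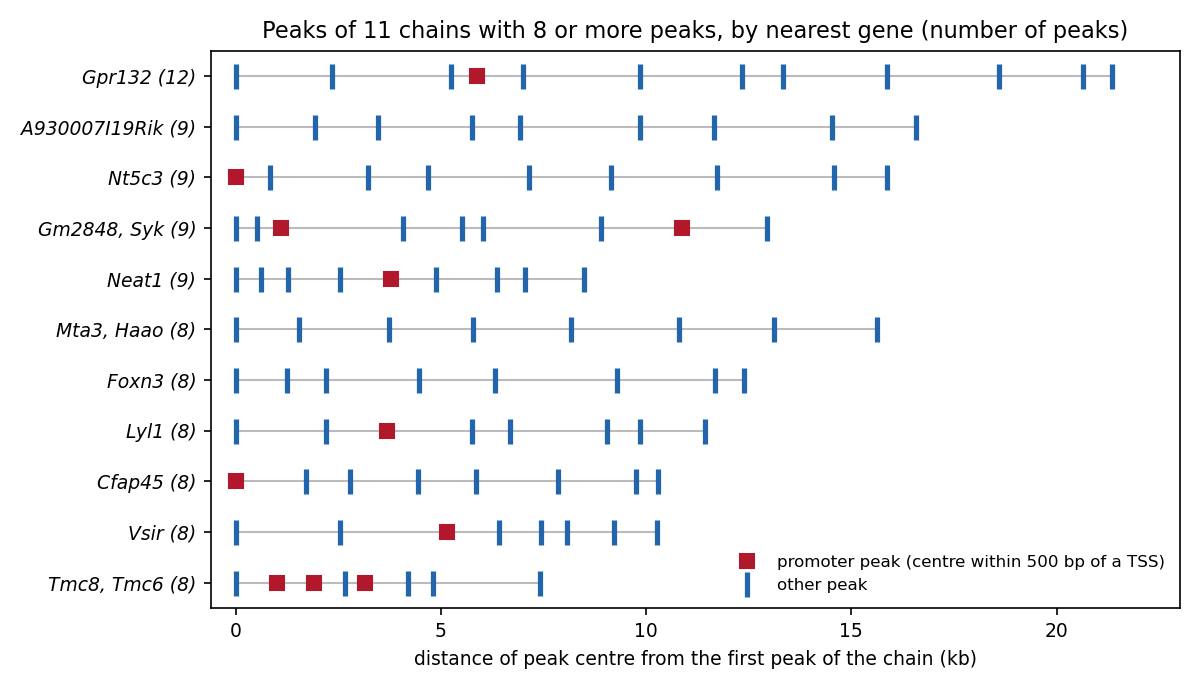
Each row is 1 of 11 chains with 8 or more peaks, named by its nearest genes with the number of peaks in brackets. Blue bars mark peak centres by their distance in kb from the first peak of the chain, and red squares mark promoter peaks, whose centre and a TSS are at most 500 bp apart. The A930007I19Rik, Mta3 and Foxn3 chains hold no promoter peak, and the Tmc8 and Tmc6 chain holds 3.

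Ranked by span, the chains at Gpr132, A930007I19Rik, Nt5c3 and Mta3 were followed by a chain of 7 peaks in 14543 bp at Cmip. Ranked by the mean distance between neighbours, the tightest chain was at Midn, with 6 peaks in 4155 bp and a mean of 731 bp. It was followed by Irf4 (5 peaks in 3434 bp, 734 bp), Ago2 (3853 bp, 838.5 bp), Mfhas1 (3900 bp, 850 bp) and Pip4k2a (3906 bp, 852 bp), each with 5 peaks. Irf4 encodes a factor of B cell and plasma cell differentiation, and its peaks ran across the promoter from -1538 to 1397 bp. The Ago2 and Pip4k2a chains lay in intron 1 of their genes, a small RNA-guided nuclease and a lipid kinase, at least 27726 bp and 38866 bp from the TSS. The Midn and Mfhas1 chains each held 2 promoter peaks and had a median GC content of 64.8% and 61.9%, while that of the Pip4k2a chain was 46.7%.

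Relative to genes, dense chains fell into those at promoters and those away from them. A promoter peak was present in 130 chains (48.1%) and absent from 140 (51.9%). Among the former, 95 held 1 promoter peak, 24 held 2, 10 held 3 and 1 held 4. Promoter peaks made up 57 of the 540 peaks at either end of a chain (10.6%) and 120 of the 967 inner peaks (12.4%). A chain named 1 nearest gene in 217 cases, 2 in 49 and 3 in 4. By RefSeq gene models, 89 chains lay wholly inside a protein-coding gene and 59 overlapped none. All peaks were intronic in 56 chains and intergenic in 55. In 97 chains every peak was over 10 kb from the TSS that the list names for it, and in 25 chains every peak was over 50 kb away. RefSeq holds nearer TSSs at some of these chains. The Sema4d chain, at least 51034 bp from its listed TSS, has a RefSeq TSS of Sema4d inside it, 1842 bp from its middle. The gene that most peaks of a chain named was also that of the RefSeq TSS nearest to the middle of the chain in 238 of 270 chains (88.1%). Nearest genes are a matter of position here and were not tested as targets.

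Other peaks lay within 50 kb of every dense chain, and this was not compared with the rest of the list. The next peak outside a chain lay 3023 to 45013 bp away, with a median of 5533 bp. By the rule it had to be over 3000 bp away. Between 1 and 24 other peaks were found within 50 kb of a chain, with a median of 11, and 31 chains had another dense chain that near. By chromosome, members made up 0.601% of peaks on X, 0.941% on chromosome 1 and 2.88% on chromosome 10, where 25 chains were found. None of the 11 peaks on Y was a member.

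Compared with the whole list, members held a smaller share of promoter peaks, and the others lay nearer to genes. Promoter peaks made up 11.7% of members (95% Wilson interval 10.2 to 13.5) and 15.6% of all peaks (15.4 to 15.9). Shares in introns were 43.9% and 41.5%, and in intergenic DNA 34.8% and 37.6%. In chains of 3 and of 4 peaks, introns held 43.9% and 46.1% and intergenic DNA 32.7% and 31.4%. Promoter peaks made up 15.8% and 14.8% there. Among the 1330 non-promoter members, the median distance to the nearest TSS was 8652 bp, with quartiles of 2783 and 27778 bp, against 22261 bp over all 71072 non-promoter peaks. More than 100 kb from the TSS that the list names lay 2.11% of these members (1.46 to 3.03) and 13.0% of all non-promoter peaks. The far members include the Foxn3 chain, which has another RefSeq TSS 14780 bp from its middle. The distance was shorter with each further peak in the chain: medians were 27091 bp for single peaks, 17824 bp for chains of 2, 12593 bp for chains of 3 and 10281 bp for chains of 4. No test was run on any of these shares or medians, because the peaks of a chain share their surroundings, and the intervals cover counting error only.

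**Figure D3:**
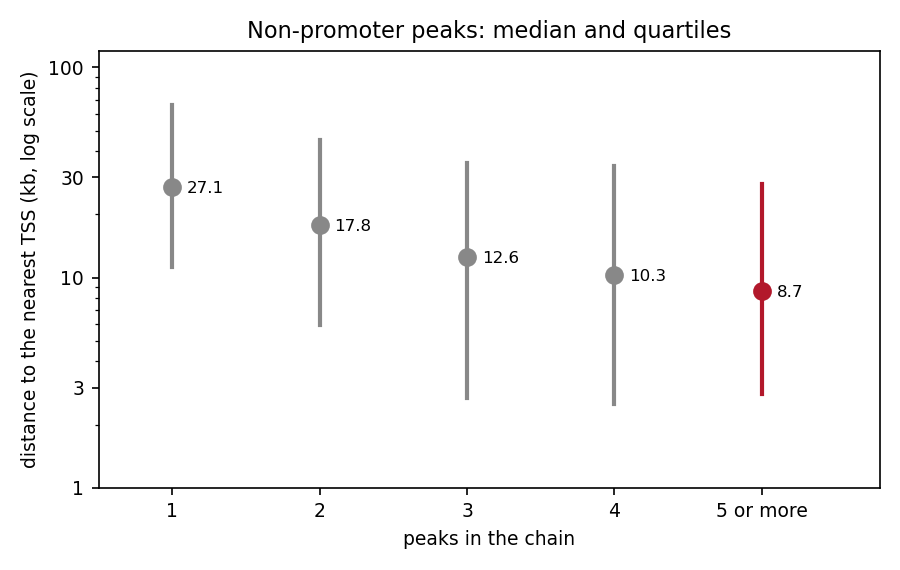
Distance in kb (log scale) from the peak centre to the nearest TSS that the list names for non-promoter peaks, by the number of peaks in their chain. Points are medians and lines run from the lower to the upper quartile, with the 1330 non-promoter peaks of dense chains in red. The median is 27091 bp for single peaks and 8652 bp for peaks of dense chains, and the quartile ranges overlap.

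Members were somewhat richer in GC. Away from promoters their median GC content was 50.2% against 47.7% over all peaks, while for promoter peaks it was 62.3% against 63.3%. Annotated repeats held 13.6% of non-promoter members (11.9 to 15.6) and 17.9% of all non-promoter peaks (17.6 to 18.2). For long terminal repeats, the remnants of retroviruses, the shares were 4.89% (3.85 to 6.18) and 7.79% (7.60 to 7.99). CpG islands, at 2.56% (1.84 to 3.55) of non-promoter members, were near their share of 1.98% in the list. Chains just too short to be members differed from the list in the same directions. Repeats held 14.4% of non-promoter peaks in chains of 3 and 15.2% in chains of 4, both within the interval of the members. Long terminal repeats held 5.52% and 6.42%, the second above the interval of the members, and the median GC content was 49.5% and 49.3%. CpG islands held 4.03% and 3.78%, both above the interval of the members. The differences from the whole list were thus not particular to dense chains.

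Over all non-promoter peaks, the strings of the main blood factors were about as common in dense chains as elsewhere. Among non-promoter peaks, the ETS string was found in 66.0% of members (63.4 to 68.5) and 65.0% of all peaks, the GATA string in 25.8% (23.5 to 28.2) and 26.9%, and the PU.1 string in 9.77% (8.29 to 11.5) and 10.2%. For RUNX the shares were 40.1% (37.5 to 42.7) and 42.5%, for CEBP 18.9% (16.9 to 21.1) and 20.7%, and for AP-1 16.1% (14.2 to 18.2) and 16.9%. For IRF they were 15.3% (13.5 to 17.4) and 17.3%, and for the E2A/HEB E-box 33.1% (30.6 to 35.7) and 30.4%. In each of these 8 families except E2A/HEB, the share over all peaks lay within the interval of the members, and there it lay just below it. This held over the whole peak. In its central 200 bp, the RUNX share of members, 21.7% (19.5 to 23.9), lay below the 26.0% of all peaks, as did AP-1 at 6.92% (5.67 to 8.41) against 8.84% and IRF at 5.94% (4.79 to 7.34) against 7.49%. ETS stood at 42.9% (40.3 to 45.6) against 44.6% there and GATA at 13.0% (11.3 to 14.9) against 12.7%, so that for both the order turned while the interval still held the share of the list. Shares were also taken within the ranges of GC content and distance to a TSS described below. Within 10 kb of a TSS, ETS strings were found in 67.0% of members (63.4 to 70.4) against 62.3% of all peaks. Over 55% GC, AP-1 strings were found in 16.2% (12.4 to 20.9) against 11.6%. In the other ranges the intervals of the members for these 8 families held the share of the list.

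For 4 families the intervals did not overlap. The intervals take peaks of the same chain as independent, and all peaks include the members, so this sorting is a description and no test. The CTCF consensus, bound by the factor that sets boundaries between chromatin domains, was found in 5.79% of members (4.66 to 7.18) and 8.74% of all non-promoter peaks (8.53 to 8.95). The TCF/LEF string was found in 5.56% (4.46 to 6.93) and 7.46% (7.26 to 7.65). The ZEB E-box was found in 37.4% (34.8 to 40.0) and 32.9% (32.5 to 33.2), and the KLF CACC box in 7.67% (6.36 to 9.22) and 5.90% (5.73 to 6.08). None of these shares was particular to dense chains. In chains of 3 and of 4 peaks CTCF was found in 5.59% and 5.77% of non-promoter peaks, TCF/LEF in 6.41% and 6.64%, the ZEB E-box in 36.1% and 35.5%, and the KLF box in 6.73% and 7.25%, all within the intervals of the members. The CTCF share was 10.1% among single peaks and 7.06% in chains of 2. GC content and distance to genes differed between members and the list, as given above, so the shares were also taken within ranges of both, an alternative added after the data were seen. The CTCF share was lower in members under 45% GC (6.03% against 8.96%), between 45% and 55% GC (5.77% against 8.89%) and over 55% GC (5.63% against 7.48%). In the first and the last of these ranges the interval of the members reached the share of the list. It was also lower within 10 kb of a TSS (5.24% against 8.71%) and beyond (6.41% against 8.75%), and in the central 200 bp (4.74% against 7.97%). For the ZEB E-box the shares in these GC ranges were 25.9% against 23.9%, 38.3% against 35.9% and 44.0% against 43.3%, so that the gap was smaller than over all peaks, and for the KLF box they were 5.17% against 3.57%, 7.49% against 6.59% and 10.2% against 8.99%. In all 3 ranges the intervals of the members for both strings held the share of the list. In the central 200 bp they did not, at 18.6% (16.6 to 20.8) against 16.0% for ZEB and 4.74% (3.72 to 6.01) against 3.33% for KLF. Beyond 10 kb from a TSS the ZEB share was 36.7% (33.0 to 40.6) against 31.9%, and within 10 kb it was 38.0% (34.5 to 41.6) against 35.3%. For KLF the intervals held the share of the list in both ranges of distance. For TCF/LEF the shares in the GC ranges were 7.33% against 9.49%, 5.28% (3.95 to 7.04) against 7.10% and, turned round, 4.93% against 3.66%. Between 45% and 55% GC the interval of the members lay just below the share of the list, and in the other GC ranges it held that share. In the central 200 bp the TCF/LEF shares were 2.63% (1.90 to 3.64) and 2.89%. Within 10 kb of a TSS they were 5.81% against 6.44%, and beyond it 5.29% (3.79 to 7.33) against 7.87%. The part of GC content in any of these gaps was not tested.

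**Figure D4:**
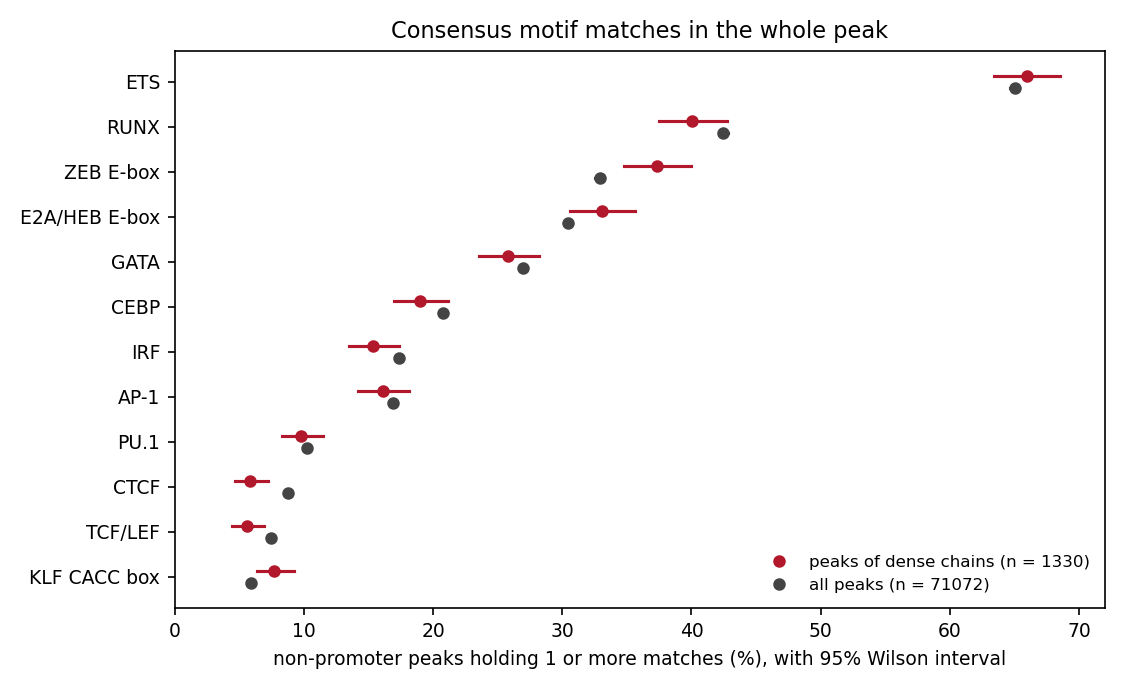
Share of non-promoter peaks (%) with 1 or more matches to each of 12 consensus strings, for the 1330 peaks of dense chains in red and all 71072 peaks in black. Lines are 95% Wilson intervals. ETS strings stand at 66.0% and 65.0%, whereas CTCF stands at 5.79% and 8.74%.

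Dense chains named 314 genes as nearest promoter, 1.65% of the 19040 genes named by any peak of the list. A gene named by many peaks had more occasion to hold a chain: 0.370% of genes named by 1 to 4 peaks had one, 2.56% of those named by 5 to 9, 6.77% of those named by 10 to 19, 12.5% of those named by 20 to 29 and 20.3% of the 79 genes named by 30 or more. Among genes of 11 lists, 22 of the 234 that the peak-list named had a dense chain, and the number of peaks per gene is given beside each list, since the counts moved with it. Its part in them was not tested.

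Stem and progenitor transcription factors had a dense chain at 5 of 21 genes (23.8%), with a median of 14 peaks per gene. The share was 1.65% over all genes and 6.77% over genes named by 10 to 19 peaks. Fli1, an ETS factor of stem cells and megakaryocytes, had 2 chains: 6 peaks in its intron 1, 30881 to 37215 bp from the TSS, and 5 intergenic peaks upstream, from -48654 to -56340 bp. By RefSeq, the TSS nearest to the middle of the second chain was that of the neighbouring ETS factor gene Ets1. Zfpm1, which encodes the GATA cofactor FOG-1, also had 2 chains, 1 of 5 peaks upstream, from -8770 to -4707 bp, and 1 of 6 peaks from the promoter at -329 bp into intron 1 at 4975 bp. Lyl1 had the chain of 8 peaks described above. Etv6, an ETS repressor, had 6 peaks in intron 1, and Cbfa2t3, a corepressor that works with Lyl1-related factors, had 5 across its promoter, from -3346 to 551 bp. Many peaks did not make a dense chain: Runx1 was named by 35 peaks and Erg by 29, and the longest chain at either held 3.

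Counts of lineage genes with a chain were small, and none was tested against the share over all genes, 1.65%. That share was 0.370% over genes named by 1 to 4 peaks and 2.56% over those named by 5 to 9. Among erythroid genes 2 of 22 had a chain (9.09%), with a median of 4 peaks per gene. At the adult beta-globin genes Hbb-bt and Hbb-b2, 6 peaks covered chr7:103806849-103815543, with a median GC content of 40.2%. GATA strings were found in 4 of these peaks, beside 24.1% of all peaks. The 2 globin genes are near-identical copies, and reads that map to several places were left out by the authors, so peaks there are uncertain. Bcl2l1, which encodes the survival protein BCL-XL of late red cell precursors, had 6 peaks in intron 2. Granulocyte and macrophage genes had a chain at 1 of 25 (4%), with a median of 4 peaks per gene: 5 peaks lay upstream of Spi1, the gene of PU.1, and the 2 that named Spi1 were at -13104 and -11973 bp, while the other 3 named Slc39a13. ETS strings were found in all 5, beside 62.4% of all peaks. Of B cell genes, 1 of 24 (4.17%) had a chain, at Irf4, with a median of 6.5 peaks per gene. None of 20 megakaryocyte and platelet genes had one, with a median of 4 peaks per gene, nor did any of 31 T cell genes, with a median of 9. In lists of this size a count of 0 cannot be told apart from a share of 1.65%. Cd2 came closest among T cell genes, with a chain of 4 peaks. These counts depended on how a chain was given to a gene. By the RefSeq TSS nearest to the middle of the chain, T cell genes had 1, Ets1 by the second Fli1 chain, and erythroid genes 0. By the gene that most peaks of a chain named, erythroid genes had 1 and granulocyte and macrophage genes 0. Both ways gave the globin chain to Hbb-bt, an adult beta-globin gene that the erythroid list does not hold.

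The lists of growth, survival and signalling genes, with 16 and 23 of the 234 list genes, held 10 of the 22 with a chain. Growth and survival genes had a dense chain at 4 of 16 (25%), with a median of 13.5 peaks per gene. The share was 1.65% over all genes and 6.77% over genes named by 10 to 19 peaks. Ccnd2 and Ccnd3, the genes of cyclins D2 and D3, had theirs across or next to their promoters. Bcl2l11, the gene of the pro-apoptotic protein BIM, had one from 25263 to 31555 bp downstream, and Btg2, an antiproliferative gene, from 11847 to 19214 bp downstream. Signal-induced and feedback genes had one at 6 of 23 (26.1%, beside the same 1.65% and 6.77%), with a median of 11 peaks per gene. Zfp36l2, which encodes an RNA-binding protein that shortens the life of messenger RNAs, had 2 chains, 1 from 38950 to 46584 bp downstream and 1 that reached its promoter at -103 bp. Its relative Zfp36 shared a chain of 7 peaks in 10797 bp with Plekhg2. Socs1, a brake on cytokine signalling, had 6 intergenic peaks from 10674 to 18217 bp downstream, and Nr4a1, a nuclear receptor induced by T cell receptor signals, had 6 upstream, from -14017 to -4189 bp. Junb, an AP-1 subunit gene, had 5 peaks across its promoter, and Dusp2, a phosphatase gene of the kinase pathways, shared 5 with Astl. By the RefSeq TSS nearest to the middle of a chain, 2 growth and survival genes and 4 signal-induced genes had one. Jun and Dusp6 were named by 35 and 29 peaks, and their longest chains held 3 and 2.

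Among receptors and surface genes 2 of 18 had a dense chain (11.1%), with a median of 9 peaks per gene. The share was 1.65% over all genes and 2.56% over genes named by 5 to 9 peaks. Itga4, an integrin that holds progenitors in the marrow, had 5 peaks from -1562 to 4038 bp. The 5 peaks named for Cd44, an adhesion receptor for hyaluronan, were intergenic and lay from -65967 to -74034 bp. Cxcr4 was named by 42 peaks and its longest chain held 4. Of housekeeping genes 1 of 19 (5.26%), Rplp0, had a chain, with a median of 4 peaks per gene. The 5 peaks of that chain lay in intron 1 of the neighbouring Pxn, and 3 of them named Rplp0, at least 20633 bp from its TSS. None of 15 neural developmental genes had one, with a median of 4 peaks per gene. No list was tested against another.

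**Figure D5:**
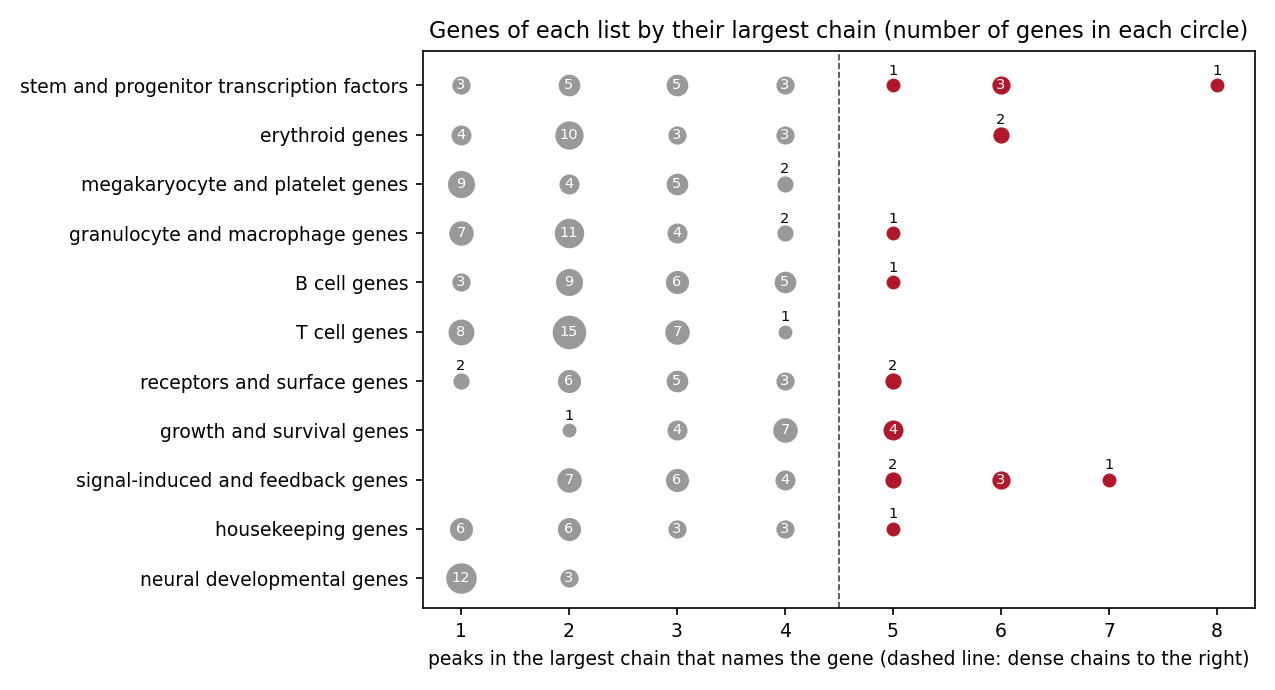
Genes of each of 11 lists by the number of peaks in the largest chain that names them. The number in or above a circle is the number of genes there, and circles to the right of the dashed line, in red, are genes with a dense chain. Of the 21 stem and progenitor factors 5 lie to the right of it, as do 6 of 23 signal-induced genes and 0 of 31 T cell genes. Over all genes that the list names the share is 1.65%.

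Several genes had more than 1 dense chain. Emilin2, which encodes a glycoprotein of the extracellular matrix, was named by 3 chains of 5, 5 and 7 peaks, all in its introns, the last from 17913 to 28128 bp downstream of the TSS. The first of these was named for Lpin2 by 4 of its 5 peaks, the gene on the other side. Chains in 2 places were named for 11 further genes. Among them, Galnt4 was the nearest promoter of 2 chains of 6 peaks that lay inside the introns of Poc1b, and Pip4k2a had a chain of 7 peaks 74008 to 83151 bp from its TSS besides the tight one of 5 peaks.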

How the data were processed

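Only 1 table was used, the annotated master peak-list. The authors aligned ATAC-seq reads of 2 replicates of each of 6 cell types to mm10 with the ENCODE ATAC-seq pipeline, joined the optimal Irreproducible Discovery Rate list of every cell type, reduced the result to peaks free of overlap with chromVAR and annotated them with HOMER (4.10.2 per the labels). Start, end and distance to TSS are in bp as deposited by the authors, not normalized. Distances of peaks to a TSS are to the one that the list names, and RefSeq holds other TSSs, some of them nearer. Because peaks have a fixed width, a broad open region can be stored as several peaks, which lengthens chains. Depth per sample is unknown, and 0 columns of values per sample were left unused.

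Members, gene lists and motifs were chosen with earlier results of these data known. Chains named are the 10 with the most peaks (ties by span), the 5 longest and the 5 with the smallest mean distance between neighbours, with up to 4 genes of each list by member peaks and the 5 genes with the most chains (ties by member peaks). Added after their values were seen were the chains at Vsir and at Tmc8 and Tmc6, the list genes Cbfa2t3, Junb and Dusp2, and genes named for having no dense chain. A chain that this rule names is not reported here. Gene bodies, TSSs and sequence came from RefSeq on GRCm38, the assembly of mm10. GC content and motif strings were read over the whole peak. Shares have 95% Wilson intervals, and no test was run. Alternatives concerned the distance and number of peaks that make a chain, merging, promoter definition, gene assignment and motif window. Chaining and the string search were tested on simulated data. Tools were Python (3.11.15) with numpy (2.4.6), pandas (2.3.3), scipy (1.17.1), and for plots matplotlib (3.10.9).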

Additional observations from a re-analysis of the deposited data

How the results depend on the processing

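The size of the set depended on the limits of the rule. In place of 1507 member peaks in 270 chains, there were 357 in 66 at a largest distance of 2000 bp, 6456 in 1087 at 5000 bp and 34270 in 4287 at 12.5 kb. With 4, 6 or 10 peaks as the smallest chain there were 4211 in 946, 657 in 100 and 12 in 1. Without promoter peaks 939 in 169 remained. The promoter share of 11.7% became 15.1% at 2000 bp, 13.7% with 4 peaks, 9.59% with 6 peaks, 17.8% for promoters within 1000 bp of a TSS and 7.30% within 100 bp. The intron share was 48.7% with 6 peaks, and the median GC content 52.3% at 2000 bp. The median span was 5375 bp at 2000 bp, 11338 bp at 5000 bp, 5604 bp with 4 peaks, 9166 bp with 6 peaks and 7815 bp with neighbours within 600 bp merged. The share of all genes with a chain was 0.394% at 2000 bp and 7.04% at 5000 bp, and 1.36% by the gene that most peaks of a chain named and 1.26% by the RefSeq TSS nearest to its middle. List genes with a chain were 7 at 2000 bp and 64 at 5000 bp. Of the 314 genes, 75 remained at 2000 bp. In the central 200 bp of the peak, shares with 11 of the 12 strings moved out of their intervals, as a shorter window must allow. With non-members in place of all peaks, the gap of each string kept its sign. No paired analysis was possible because the list holds no values per sample. No cell type, signal or replicate error is known for any chain, and broad regions stored as several peaks cannot be told apart from clusters of separate sites.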

Other observations

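At a largest distance of 12.5 kb, a stitching distance in common use for super-enhancers, the longest chains of the list held 48 peaks each. The first lay around Celf5, over 204659 bp and 13 nearest genes, and the second around Gpr18, over 185474 bp and 5 nearest genes. A chain of 34 peaks lay around Brd2 with 9 nearest genes. Another, with 34 peaks over 124323 bp, named Fli1 alone and took in both of its dense chains. These values are a description, as the distance was the rule.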
